A study of Mus musculus with 11 samples.

Results

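Shank1, Shank2, Shank3, Homer1, Homer2, Homer3, Dlgap1, Dlgap2, Dlgap3 and Dlgap4 encode 3 families of scaffold proteins of the excitatory postsynapse, and their messenger RNA was followed here in mouse forebrain. The genes were taken by name: they are 10 of the 77179 Ensembl gene identifiers in the expression table, and all 10 were among the 19008 genes with at least 1 TPM (transcripts per 1000000, a length-corrected share) in at least 2 libraries. The remaining Dlgap gene, Dlgap5, is known for its role in the mitotic spindle and was described only beside the family.

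The study used NEX-RiboTag mice, and in all 11 libraries cortex and hippocampus were processed together. In NEX-RiboTag animals Cre recombinase is expressed from the NEX (Neurod6) locus, which is active in excitatory forebrain neurons, and turns on a green fluorescent protein fused to the ribosomal protein Rpl10a. RNA on the tagged ribosomes was recovered with anti-GFP magnetic beads (the pull-down) at postnatal day 7 (P7), P14 and P21, with 3 libraries at each age, called biological replicates in the labels. All 9 pull-down libraries carried the genotype NEX-Cre;Rpl10aeGFP/eGFP. The 2 input libraries were whole-tissue lysate at P7, where replicate 1 had the same genotype as the pull-downs and replicate 2 was Rpl10aeGFP/eGFP without Cre. Input tissue from P14 and P21 was not analysed here, so all comparisons between ages are between pull-downs.

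At an excitatory synapse these proteins form a layered lattice under the membrane. Dlgap proteins (also called SAPAP or GKAP) bind the guanylate kinase domain of PSD-95 and the other Dlg scaffolds, Shank proteins bind the C-terminus of Dlgap, and Homer proteins bind a proline-rich motif in Shank, in group I metabotropic glutamate receptors and in inositol trisphosphate receptors. Long Homer proteins multimerise through a coiled coil, whereas a short, activity-induced Homer1 product (Homer1a) lacks that coil and uncouples these contacts. SHANK3 loss is known from Phelan-McDermid syndrome, and loss of Dlgap3 in mice is known for compulsive grooming. The deposited values are summed per gene, so Homer1a and the long Homer1 forms could not be told apart here.

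Between 15154 and 17793 genes reached 1 TPM in each library, and TPM keeps no sequencing depth, so counting error is unknown. Relative to input, the P7 pull-down was lower for 14 of the 14 inhibitory neuron markers that did not pass the filter through input alone (Erbb4 did). The summed level of all 15 ran from 920 to 1051 TPM in input and from 88.8 to 104 TPM in the pull-down. Of 12 astrocyte markers 12 were lower (3213 to 3548 against 158 to 219 TPM). The summed excitatory neuron markers ran from 1254 to 1363 TPM in input and from 1245 to 1494 TPM in the P7 pull-down, where 4 of 15 were called higher and 6 lower. Prox1 stood in both the excitatory and the inhibitory list and was among the lower genes of each. In that comparison 18.6% of all tested genes were called higher and 51.1% lower. Across age, glial markers rose within the pull-down. Of all tested genes 26.7% were called higher and 22.8% lower at P14 than at P7. At P21 against P7 the shares were 27.3% higher and 32.6% lower. The oligodendrocyte sum ran from 33.2 to 37.2 TPM at P7, from 309 to 419 at P14 and from 530 to 765 at P21, with 10 of 10 markers called higher at P14 than at P7 beside Opalin and Ermn, which passed the filter through P21 alone. The astrocyte sum rose from a range of 158 to 219 TPM to 375 to 447 and then 503 to 659 TPM, with 10 of 12 called higher at P14 than at P7. The excitatory sum ran from 2781 to 3004 TPM at P14 and from 3182 to 3392 at P21, but its markers were split, with 3 of 15 called higher and 7 lower at P14 than at P7 and 4 higher and 7 lower at P21 than at P7. At P14 most of that sum came from Slc17a7, the vesicular glutamate transporter VGLUT1, at a mean of 628 TPM at P7 and 1823 at P14, and Camk2a went from 183 to 620 TPM. No marker of these lists was at 0 in every library of a group, and the part of the glial rise in the age results below was not tested.

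TPM is scaled to transcript length, so levels are set side by side between genes as a description. How transcripts were summed to genes was not given. In the pull-downs Dlgap4 and Dlgap3 were the most abundant of the 10 genes at every age and Homer3 and Dlgap2 the least. At P21 the mean TPM was 271 for Dlgap3, 165 for Dlgap4, 144 for Dlgap1 and 107 for Homer1, against 15.4 for Homer3 and 16.2 for Dlgap2, whose libraries overlapped. The Shank genes lay between 37.5 (Shank2) and 72.1 (Shank1) TPM.

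**Figure D1:**
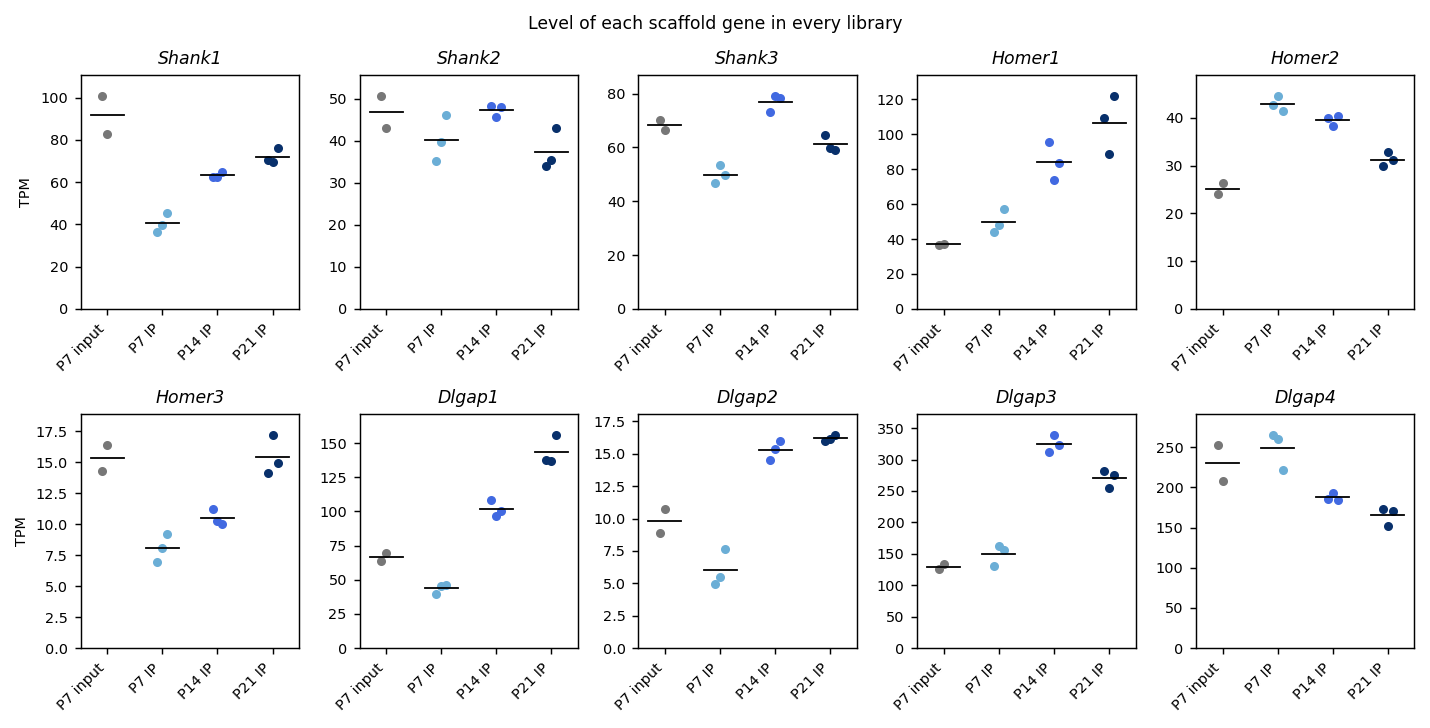
TPM of each of the 10 genes in each of the 11 libraries, grouped as P7 input, P7 pull-down (IP), P14 pull-down and P21 pull-down; points are libraries and horizontal lines are group means. The rising pull-down series of Dlgap1 runs from 39.6 to 156 TPM, while Dlgap4 falls from a highest P7 value of 265 to a lowest P21 value of 152 TPM.

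Across the pull-down ages 7 of the 10 genes were called higher at P14 than at P7 and 1, Dlgap4, was called lower, by limma on log2(TPM + 1) with an adjusted p below 0.05. Of all tested genes 26.7% were called higher and 22.8% lower in that comparison. The median change of the 10 genes was 0.62 on the log2 scale, beside 0.03 over all tested genes. Between P14 and P21 the calls were 2 higher, Dlgap1 and Homer3, and 4 lower, Shank2, Shank3, Homer2 and Dlgap3, beside 8.53% of all genes higher and 19.7% lower. Over the whole interval, P21 against P7, 7 were higher and 2, Homer2 and Dlgap4, were lower, with 27.3% and 32.6% of all tested genes called in those directions. By the F test over the 3 ages 9 of 10 passed, beside 62.6% of all tested genes. These comparisons share libraries, so their counts are not independent of each other. In a bulk pull-down a change of the share of tagged cells and a change of RNA per cell cannot be told apart.

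**Figure D2:**
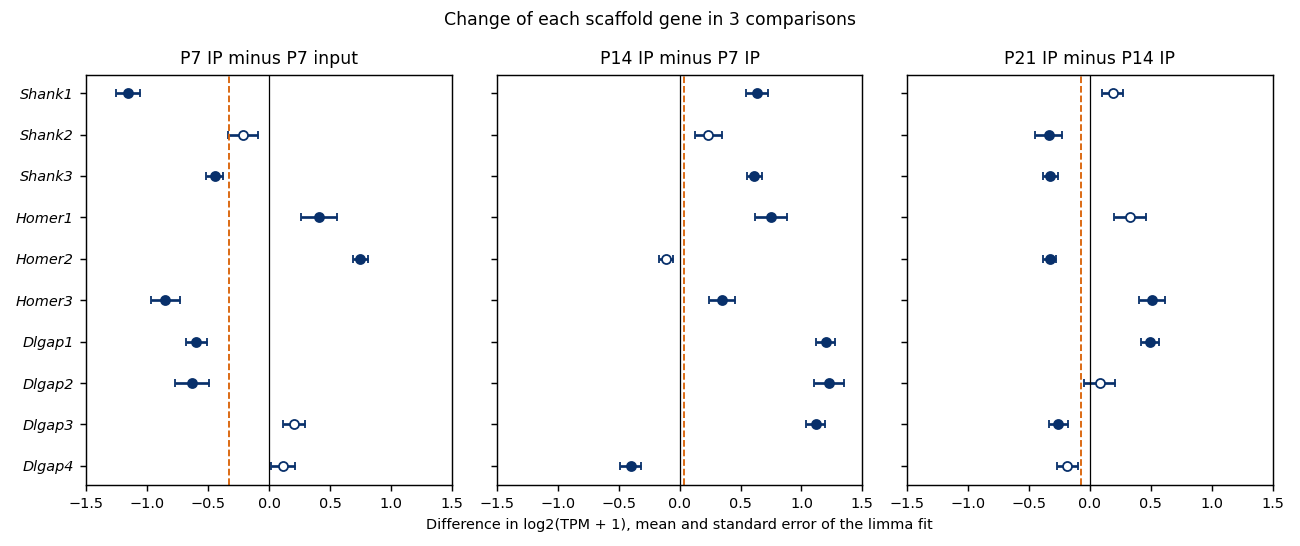
Log2 changes of the 10 genes between P7 pull-down and input and between consecutive pull-down ages, with standard errors of the limma fit; filled points were called at an adjusted p below 0.05 and open points were not, and the dashed line is the median of all tested genes. Dlgap1, Dlgap2 and Dlgap3 lie at 1.20, 1.23 and 1.12 in the P14 against P7 comparison, and Dlgap4 lies at -0.40.

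The weekly step itself differed between the 2 weeks for 4 of the 10 genes. The change from P14 to P21 minus the change from P7 to P14 was called lower for Dlgap3 (-1.38 ± 0.14, standard error, adjusted p = 0.00027), Dlgap2 (-1.15 ± 0.22, adjusted p = 0.00409), Shank3 (-0.94 ± 0.11, adjusted p = 0.00041) and Dlgap1 (-0.71 ± 0.13, adjusted p = 0.00417). With limma 0 of 10 were called higher, and 0 were at an unadjusted p below 0.05; the background was 7.46% of all genes higher and 16.8% lower. Shank1 gave -0.45 for this difference (adjusted p = 0.0577), and was called without input replicate 1 (0.035), input replicate 2 (0.0349) or P7 pull-down replicate 3 (0.0189), with adjusted p from 0.0189 to 0.162 over all alternatives. Shank2 gave -0.57 (adjusted p = 0.053), and was called without P7 replicate 3 (0.0205) or P21 replicate 3 (0.0206), with adjusted p from 0.0205 to 0.15.

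Among the Dlgap genes, which link PSD-95 to Shank, 3 rose and 1 fell from P7 to P14. Dlgap1 (ENSMUSG00000003279) had pull-down values of 39.6, 45.4 and 46.3 TPM at P7, 108, 96.6 and 100.2 at P14, and 138, 137 and 156 at P21. The 3 ages did not overlap, and the P7 input (63.5 and 69.8 TPM) lay between the P7 and P14 pull-downs. Dlgap1 rose in both steps, by 1.20 ± 0.08 (adjusted p = 9.66e-07) and then by 0.49 ± 0.08 on the log2 scale (adjusted p = 0.00119), and P21 was 3.23-fold above P7 on the log2(TPM + 1) scale (1.69 ± 0.08, adjusted p = 3.53e-08, limma). Of all tested genes 2.82% had a larger change from P7 to P14 than Dlgap1.

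Dlgap2 (ENSMUSG00000047495), a paralogue at low level, went from 4.96, 5.50 and 7.69 TPM at P7 to 14.5, 15.4 and 16.0 at P14. At P21 it was 16.0, 16.2 and 16.4 TPM, without overlap between ages, although the highest P14 and the lowest P21 library were nearly equal. The P14 change was 1.23 ± 0.13 (adjusted p = 1.83e-05) and the step from P14 to P21 was 0.08 ± 0.13 (adjusted p = 0.68, 95% interval -0.20 to 0.36).

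Dlgap3 (ENSMUSG00000042388), the most abundant family member at P14, read 130.5, 162 and 157 TPM at P7 and 312, 339 and 324 TPM at P14. At P21 it was 282, 255 and 276 TPM, below every P14 library and above every P7 library. The rise was 1.12 ± 0.08 (adjusted p = 1.64e-06) and the later fall was -0.26 ± 0.08 (adjusted p = 0.0323). The later fall was the less firm of the pair: its call was lost without P14 replicate 2 (adjusted p = 0.106), without P14 replicate 3 (0.0772), without P21 replicate 2 (0.112) or 3 (0.0545), and under 3 other settings, with adjusted p from 0.0064 to 0.191 over all alternatives.

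Dlgap4 (ENSMUSG00000061689) ran the other way. It read 265, 260 and 222 TPM in the P7 pull-downs, 185, 194 and 184 at P14 and 173, 152 and 171 at P21. The ages did not overlap. The change from P7 to P14 was -0.40 ± 0.09 (adjusted p = 0.00327), and from P14 to P21 it was -0.19 ± 0.09, not past the threshold (adjusted p = 0.148). Over the interval Dlgap4 fell by 0.59 on the log2 scale (adjusted p = 0.000181). Dlgap5, the spindle-linked gene, was at 1.17 TPM in input and at 0.214, 0.103 and 0.0554 TPM in the P7, P14 and P21 pull-downs, and it passed the filter on low values through the inputs alone.

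The Shank genes, which sit between Dlgap and Homer, did not share a course. Shank1 (ENSMUSG00000038738) read 36.5, 39.6 and 45.5 TPM at P7, 62.2, 62.6 and 65.0 at P14, and 70.7, 69.6 and 76.2 at P21. Every older age was above the younger. The first step was 0.64 ± 0.09 (adjusted p = 0.000167), and the second step, 0.19 ± 0.09, was not past the threshold (adjusted p = 0.148). That second step was called in the fit limited to the 2 ages compared (adjusted p = 0.0333) and under median-of-ratios scaling (adjusted p = 0.0168) or quantile normalisation (0.0432), within a range of 0.0168 to 0.33.

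Shank2 (ENSMUSG00000037541) read 35.2, 39.7 and 46.2 TPM at P7, 48.4, 45.8 and 48.0 at P14, and 34.0, 35.4 and 43.0 at P21. The P7 values overlapped both other ages, and every P21 value lay below every P14 value. From P7 to P14 the change was 0.24 ± 0.11 (adjusted p = 0.104) and from P7 to P21 it was -0.10 ± 0.11 (adjusted p = 0.448, 95% interval -0.35 to 0.14). The call at P21 against P14 (-0.34 ± 0.11, adjusted p = 0.0436) was lost in 10 alternatives, among them leaving out P14 replicate 1 (0.0993), 2 (0.0777) or 3 (0.106), P21 replicate 1 (0.144) or 2 (0.128), and P7 replicate 2 (0.0598), with adjusted p from 0.0154 to 0.144. Shank2 was also the 1 gene of 10 that missed the F test (adjusted p = 0.0508). Its F test was called in 8 alternatives, with adjusted p from 0.015 to 0.139. Leaving out an input replicate gave 0.0465 for replicate 1 and 0.0464 for replicate 2. Leaving out P7 pull-down replicate 1 or 3 gave 0.0394 and 0.0207, and leaving out P21 replicate 3 gave 0.015. Shank2 was called higher at P14 than at P7 without P7 pull-down replicate 3 (0.34, adjusted p = 0.0285), in a range of 0.0285 to 0.327.

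Shank3 (ENSMUSG00000022623) peaked at P14. It read 46.6, 53.5 and 49.6 TPM at P7, 73.2, 79.1 and 78.2 at P14 and 64.7, 59.7 and 58.9 at P21, so P21 lay between the others without overlap. The rise was 0.61 ± 0.06 (adjusted p = 1.67e-05), the fall was -0.33 ± 0.06 (adjusted p = 0.0034), and P21 remained above P7 by 0.29 (adjusted p = 0.0021).

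Of the Homer genes, which cross-link Shank to receptors and calcium stores, Homer1 was called higher from P7 to P14, Homer3 was called higher in both steps and Homer2 was called lower from P14 to P21. RefSeq promoter windows of these 3 paralogues are printed as a description. They run from 250 bases before to 50 after a transcription start. Their build, GRCm38.p6, differs from the mm39 build named for the expression data. Any part of the promoter letters in the courses of the 3 genes was not tested. Capitals mark TGACG, the core of the cyclic AMP response element, on either strand, and GGGCGG, the GC box, on either strand. The 2 motifs share no base in these windows. Homer1 holds 3 TGACG matches, at 56, 40 and 14 bases before the start, and no GC box. Homer2 holds 8 and Homer3 5 GC boxes and neither holds TGACG. Their windows are chr13:93303507-93303806 (plus strand), chr7:81706876-81707175 (minus strand) and chr8:70282749-70283048 (plus strand).
Homer1: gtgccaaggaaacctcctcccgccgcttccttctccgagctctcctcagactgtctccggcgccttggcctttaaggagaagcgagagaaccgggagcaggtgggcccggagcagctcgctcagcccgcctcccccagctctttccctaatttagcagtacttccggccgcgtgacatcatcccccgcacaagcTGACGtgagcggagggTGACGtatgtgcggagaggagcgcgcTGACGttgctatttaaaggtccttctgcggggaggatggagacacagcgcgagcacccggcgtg
Homer2: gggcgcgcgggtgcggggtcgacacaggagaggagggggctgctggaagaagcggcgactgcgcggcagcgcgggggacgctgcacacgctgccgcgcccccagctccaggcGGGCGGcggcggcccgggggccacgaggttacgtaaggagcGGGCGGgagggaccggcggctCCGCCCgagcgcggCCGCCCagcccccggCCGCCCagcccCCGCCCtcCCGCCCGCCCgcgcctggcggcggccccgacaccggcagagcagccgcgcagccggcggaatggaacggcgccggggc
Homer3: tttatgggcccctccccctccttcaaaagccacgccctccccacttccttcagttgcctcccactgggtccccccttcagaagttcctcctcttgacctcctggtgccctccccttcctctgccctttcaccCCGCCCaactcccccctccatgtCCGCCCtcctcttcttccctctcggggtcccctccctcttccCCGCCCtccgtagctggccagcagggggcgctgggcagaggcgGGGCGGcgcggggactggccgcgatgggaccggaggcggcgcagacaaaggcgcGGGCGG
Of 32851 RefSeq promoters of that length 20.8% hold TGACG, 1.03% hold at least 3, 35.7% hold GGGCGG and 10.7% hold at least 3 of those. GC content was 63% in the printed Homer1 window, 82.3% in Homer2 and 69.7% in Homer3, beside a median of 52.7% over all promoters. The shares over all promoters were not matched for GC content. A match describes letters in the window and names no factor. Homer1 and Homer2 each have a further listed start, and neither of those windows, which are not printed, holds TGACG or a GC box. Of the 10 genes 7 have a window in that table. Among the unprinted ones Dlgap4 holds 1 TGACG and 3 GC boxes, and Shank3 holds 4 GC boxes and no TGACG. The Dlgap1 and Dlgap3 windows hold neither motif.

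Homer1 (ENSMUSG00000007617) read 44.3, 48.0 and 57.3 TPM at P7, 95.4, 74.0 and 83.7 at P14 and 109, 88.7 and 122 at P21. P14 and P21 overlapped, and every P14 value lay above every P7 value. The first step was 0.75 ± 0.13 (adjusted p = 0.000779), and P21 against P7 gave 1.08 (adjusted p = 3.71e-05). The second step was 0.33 ± 0.13 (adjusted p = 0.0861), and leaving out P21 replicate 2 moved it past the threshold (0.46, adjusted p = 0.0289, range 0.023 to 0.259), as did median-of-ratios scaling (0.45, 0.023) and quantile normalisation (0.36, 0.0476). Of 15 immediate-early genes, the activity-induced class to which Homer1a belongs, 14 were called higher at P14 than at P7, beside 26.7% of all tested genes. The summed level of these 15 genes ran from 133 to 163 TPM at P7, 476 to 502 at P14 and 587 to 621 at P21. Their part in the Homer1 change was not tested.

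Homer2 (ENSMUSG00000025813) read 42.7, 44.6 and 41.4 TPM at P7, 40.0, 38.4 and 40.4 at P14 and 29.9, 32.8 and 31.1 at P21. The ages did not overlap. It did not pass the threshold from P7 to P14 (-0.11 ± 0.06, adjusted p = 0.125) and fell in the following week (-0.33 ± 0.06, adjusted p = 0.00187).

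Homer3 (ENSMUSG00000003573) was the least abundant Homer gene, at 6.92, 8.08 and 9.24 TPM at P7, 11.2, 10.3 and 10.0 at P14 and 14.1, 17.2 and 14.9 at P21. It rose by 0.35 ± 0.11 (adjusted p = 0.0202) and then by 0.51 ± 0.11 (adjusted p = 0.00588), and no pull-down ages overlapped. The first of these calls was lost without P7 replicate 1 (adjusted p = 0.0748), without P14 replicate 1 (0.0713) and with no filter on low genes (0.0539), within 0.00751 to 0.0748 over all alternatives.

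The sum over a family's members is given as a description. The Dlgap sum was 449 ± 21.8 TPM at P7, 629 ± 13.1 at P14 and 596 ± 31.4 at P21 (SD, n = 3 in each). The Homer sum was 101 ± 7.03, 134 ± 12.0 and 153 ± 14.7 TPM, and the Shank sum was 131 ± 11.6, 187 ± 3.66 and 171 ± 6.79 TPM. Within the Dlgap family Dlgap4 held 55.5% at P7 and 29.8% at P14, while Dlgap3 went from 33.4% to 51.6% and Dlgap1 from 9.77% to 16.2% and 24.1%. Homer1 went from 49.3% of its family to 62.6% and 69.3%, and Homer2 from 42.7% to 29.6% and 20.6%.

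**Figure D3:**
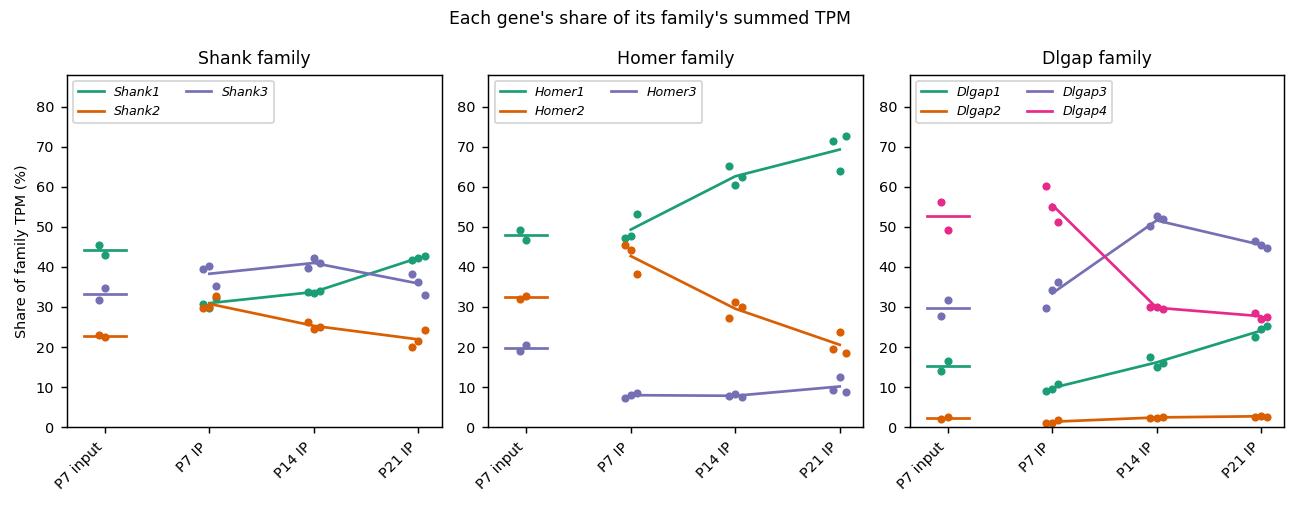
Share of each family's summed TPM held by each gene, in percent, with a point for each library in the P7 input, P7, P14 and P21 pull-downs and lines through the means of the pull-downs. The Dlgap3 and Dlgap4 lines cross between P7 and P14, where Dlgap4 goes from 55.5% to 29.8%.

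To ask whether paralogues changed their balance, the log2 ratio of TPM + 1 in each within-family pair was compared over the 3 pull-down ages with an exact permutation test (F statistic, 1680 assignments of the 9 libraries to ages, smallest possible p = 0.00357). Of 12 pairs 9 passed at a p adjusted over the 12 pairs. The share passing among pairs of other genes was not computed, so the count is a description. In the limma F test over the same ages 62.6% of all tested genes passed. Dlgap3 over Dlgap4 went from -0.73 at P7 to 0.79 at P14 and 0.71 at P21, and Dlgap1 over Dlgap4 from -2.48 to -0.88 and -0.20 (exact permutation p = 0.00357, adjusted p = 0.00714 for both, at the smallest possible p). Homer1 over Homer2 moved from 0.21 to 1.07 and 1.73, and Shank1 over Shank2 from 0.01 to 0.41 and 0.93, with the same exact permutation p. Homer2 over Homer3 and Dlgap2 over Dlgap4 also had that p.

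Other pairs were less firm. Dlgap2 over Dlgap3 (exact permutation adjusted p = 0.0321) failed when any of 8 libraries was left out in turn, with adjusted values from 0.0514 to 0.113; leaving out P7 replicate 3 did not end the call. Shank1 over Shank3 (exact permutation adjusted p = 0.0429) failed without P7 replicate 1 or P14 replicate 3 (0.0536 for both). Homer1 over Homer3 did not pass (2.49, 2.89 and 2.71, exact permutation adjusted p = 0.204), and neither did Shank2 over Shank3 (adjusted p = 0.0779) or Dlgap1 over Dlgap2 (adjusted p = 0.0771). The difference of a ratio between P21 and P7 was 0.22 for Homer1 over Homer3, and that pair passed without P21 replicate 2 (exact permutation adjusted p = 0.0429), as did Shank2 over Shank3 without P21 replicate 3 (0.0184) and Dlgap1 over Dlgap2 without P7 replicate 3 (0.0143) or P14 replicate 1 (0.0476).

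**Figure D4:**
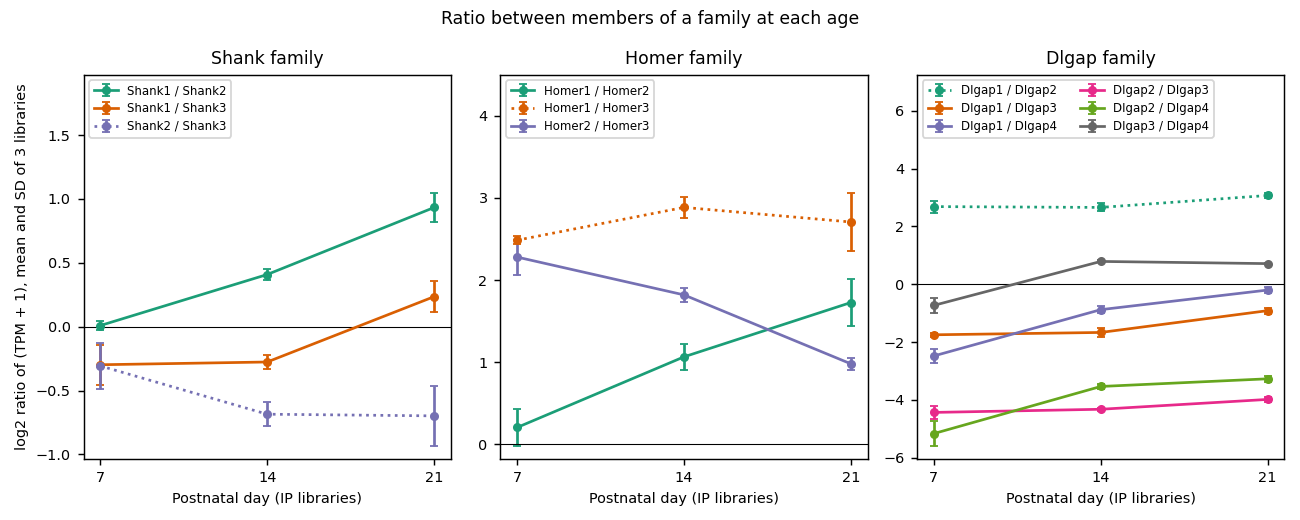
Log2 ratio of TPM + 1 for the 12 within-family pairs against pull-down age in days, as mean and SD of 3 libraries, with solid lines for pairs with an adjusted p below 0.05 and dotted lines for the others. Dlgap3 over Dlgap4 changes sign between P7 (-0.73) and P14 (0.79).

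Against whole tissue at P7, 2 of the 10 genes were called higher in the pull-down, Homer2 and Homer1, and 5 were called lower, Shank1, Homer3, Dlgap2, Dlgap1 and Shank3. In the same comparison 18.6% of all tested genes were called higher and 51.1% lower, and the median was -0.33 both for the 10 genes and for all tested genes. Shank1 read 100.9 and 82.6 TPM in the 2 inputs, against the P7 pull-down values of 36.5 to 45.5, a change of -1.16 ± 0.10 (adjusted p = 2.62e-06). Homer3 read 14.3 and 16.4 TPM in input and 6.92 to 9.24 in the pull-down (-0.85 ± 0.12, adjusted p = 9.22e-05).

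Homer2, at 24.0 and 26.3 TPM in input, was above both inputs in each P7 pull-down (0.75 ± 0.06, adjusted p = 2.29e-06). Homer1, at 36.9 and 37.4 TPM, was at 44.3 to 57.3 in the pull-down (0.41 ± 0.15, adjusted p = 0.0287). That call was lost without input replicate 1 (adjusted p = 0.104), input replicate 2 (0.0893) or P7 pull-down replicate 3 (0.0918), with no filter on low genes (0.0707), and after TPM was recomputed with mitochondrial, haemoglobin and ribosomal protein genes left out (0.0873), with adjusted p from 0.000445 to 0.104. Shank3 (-0.45 ± 0.07, adjusted p = 0.000181), Dlgap1 (-0.60 ± 0.09, adjusted p = 0.000115) and Dlgap2 (-0.63 ± 0.14, adjusted p = 0.00214) were lower. Their inputs read 70.2 and 66.5 TPM for Shank3, 63.5 and 69.8 for Dlgap1, and 8.88 and 10.7 for Dlgap2, each above every P7 pull-down of the same gene.

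These 3 calls depended on the scaling. Median-of-ratios scaling centres all tested genes at a median of 0 in place of -0.33, and gave -0.04 for Shank3 (adjusted p = 0.617), -0.19 for Dlgap1 (0.0527) and -0.26 for Dlgap2 (0.11), against ranges over all alternatives of 1.83e-05 to 0.617, 4e-05 to 0.0527 and 6.35e-05 to 0.656. Quantile normalisation also ended the Dlgap2 call (-0.07, adjusted p = 0.656). Under median-of-ratios scaling the calls over all genes were 6250 higher and 6147 lower.

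Shank2 (-0.22 ± 0.12, adjusted p = 0.143), Dlgap3 (0.20 ± 0.09, adjusted p = 0.0631) and Dlgap4 (0.11 ± 0.10, adjusted p = 0.322) were not called. Their inputs, 50.7 and 43.1 TPM for Shank2, 125 and 134 for Dlgap3, and 252 and 208 for Dlgap4, overlapped the P7 pull-downs. Under median-of-ratios scaling Shank2 turned to 0.19 (adjusted p = 0.152), and Dlgap3 (0.61, adjusted p = 8.65e-05) and Dlgap4 (0.52, adjusted p = 0.000906) were called higher. Leaving out P7 pull-down replicate 3 gave a call for Shank2 (-0.32, adjusted p = 0.0368, range 0.0345 to 0.595), and leaving out P7 pull-down replicate 1 gave one for Dlgap3 (0.30, adjusted p = 0.00292, range 8.65e-05 to 0.559). The P7 pull-down minus input difference of Dlgap4 was -0.024 with the Cre-carrying input alone and 0.25 with the input without Cre alone.

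The lists of binding partners and of other postsynaptic density genes were chosen with earlier results of these data known. Their counts are therefore a description. Of 7 Dlgap partners (Dlg1 to Dlg4, Magi2 and the dynein light chains Dynll1 and Dynll2) 7 were higher at P14 than at P7, beside 26.7% of all tested genes. The median change was 0.70, beside 0.03 over all. At P21 against P7 6 were higher, beside 27.3% of all tested genes. Dlg4, which encodes PSD-95, had means of 672 ± 55.3 TPM at P7, 1254 ± 50.4 at P14 and 1161 ± 42.8 at P21 (SD, n = 3). Dlg1 (SAP97) had means of 11.3, 43.4 and 56.2 TPM, and its change to P14 was 1.86 ± 0.11 (adjusted p = 6.15e-07). Dynll2, a dynein light chain that binds Dlgap proteins, rose from a mean of 428 to 602 and 898 TPM.

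The partners of Homer and Shank were mixed. Of 10 Homer partners 5 were higher and 1 lower at P14 than at P7 (median 0.31), beside 26.7% of all tested genes higher and 22.8% lower. At P21 against P7 3 were higher and 3 lower (median 0.01), which is near the 27.3% and 32.6% of all tested genes. Itpr1, the inositol trisphosphate receptor, had means of 7.46, 17.0 and 32.4 TPM across the ages, with a change of 1.99 ± 0.09 from P7 to P21 (adjusted p = 4.35e-08), while Grm5 (the mGluR5 receptor) had 21.6, 19.0 and 15.6 TPM, a change of -0.43 ± 0.12 (adjusted p = 0.0121). Cdc42, a small GTPase, went from 574 to 428 and 335 TPM and Agap2 from 381 to 639 and 631 TPM. Of 9 Shank partners 3 were higher and 1 lower at P14 than at P7 (median 0.14), and 4 were higher and 3 lower at P21 than at P7. Baiap2, which encodes the actin regulator IRSp53, had means of 33.6, 83.7 and 104 TPM (1.60 ± 0.08 from P7 to P21, adjusted p = 5.25e-08), and Arhgef7, which encodes the exchange factor beta-PIX, had 88.6, 85.1 and 63.4 TPM. Of 25 other postsynaptic density genes 19 were higher at P14 than at P7, with a median of 0.57, and with limma 0 were lower, as were 0 at an unadjusted p below 0.05. At P21 against P7 15 of these 25 were higher and 4 lower, beside 27.3% and 32.6% of all tested genes. In that list Cacng3 changed by 2.11 ± 0.11 from P7 to P14. Kalrn, which encodes an exchange factor of dendritic spines, changed by 1.86 ± 0.11 in that step. Nlgn1 was among the lower genes at P21 against P7 (-0.32 ± 0.10).

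Between P14 and P21 the same lists were split. The counts were 1 higher and 3 lower of 10 Homer partners, 1 higher and 5 lower of 9 Shank partners, 2 higher and 2 lower of 7 Dlgap partners, and 5 higher and 7 lower of 25 other postsynaptic density genes. The shares over all tested genes in that comparison were 8.53% higher and 19.7% lower. Against input at P7 the counts were 1 higher and 6 lower of 9 Homer partners, leaving out Ryr1, which passed the filter through the inputs alone, 3 higher and 2 lower of the Dlgap partners and 3 higher and 16 lower of the other postsynaptic density genes. The shares over all tested genes were 18.6% higher and 51.1% lower. Of the Shank partners 6 were lower and, with limma, 0 were higher, as were 0 at an unadjusted p below 0.05. Median-of-ratios scaling gave 2 higher and 2 lower of the Shank partners, 5 higher and 1 lower of the Dlgap partners and 9 higher and 8 lower of the other postsynaptic density genes in that comparison. Under that scaling 6250 of all 19008 tested genes were called higher and 6147 lower, so the main-fit shares are no background for these counts.

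The genes whose log2(TPM + 1) followed the members most closely over the 9 pull-down libraries are given as a description, since the 9 libraries fall into only 3 ages. Dlgap1 was closest to Ppm1b (Pearson r = 0.999), Dlgap3 to Nomo1 (0.998) and Dlgap4 to Uba1 (0.995). For Homer1 they were Ppm1h (0.993), Mlec (0.992) and Egr3 (0.988), and for Shank1 they were Fam217b and Klhl34 (0.998 for both). Homer2 was closest to Memo1 (0.988), Homer3 to Gas2l1 (0.978), Shank3 to Gde1 (0.988) and Shank2 to Lrrtm2 (0.966). The 7546 genes searched had a mean of at least 10 TPM over those libraries.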

How the data were processed

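The deposited table holds TPM for 77179 Ensembl gene identifiers in 11 libraries, with each library scaled to a sum near 1000000, so sequencing depth is not kept and the file gives no counts. Per the labels' protocols, polyA RNA was reverse-transcribed with random primers and sequenced on a NovaSeq X Plus. Per the submitters' processing notes the authors used fastp 1.0.1, Salmon 1.10.0, DESeq2 1.46.0 and the mm39 build; the annotation release, strand setting and the summing of transcripts to genes were not given in the sources used here. Symbols were matched for 50886 identifiers.

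From these values log2(TPM + 1) was fitted with limma 3.58.1 in R 4.3.3 (variance trend, all 11 libraries, 7 residual degrees of freedom), keeping the 19008 genes that reached 1 TPM in 2 or more libraries, with Benjamini-Hochberg adjustment over all of them and a call at an adjusted p below 0.05. Within-family pairs used exact permutation tests. The labels call the pull-down libraries biological replicates; whether animals were pooled is not stated, so p-values measure the spread between these libraries. The fit and the exact test were tested on simulated data. Alternatives were pseudocounts of 0.1 and 5 TPM, other filters, scalings and model settings, and leaving out each library.

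Apart from the 10 scaffold genes, named genes were, in each partner list and comparison, up to 2 called genes with the largest rise and up to 2 with the largest fall, a few markers, and the 3 genes closest to each scaffold gene over the pull-down libraries, not all of which are printed. The genes and lists were chosen with earlier results of these data known. Promoter sequences are from RefSeq, build GRCm38.p6.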

Additional observations from a re-analysis of the deposited data

How the results depend on the processing

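The P21 against P7 values of the 10 genes kept direction and side of the threshold under every alternative tried. For P7 pull-down against input, the number of the 10 genes called higher was 1 with no filter, 4 under median-of-ratios scaling, 1 after leaving mitochondrial, haemoglobin and ribosomal protein genes out of the scaling, and 1 to 3 when each library was left out, and the number lower was 2 under median-of-ratios scaling. Over all genes there, 6250 were higher and 6147 lower under median-of-ratios scaling, 6256 higher and 6025 lower under quantile normalisation, and 5421 lower with a mean of at least 5 TPM. Direction reversed for Shank2 (0.19, median-of-ratios), and for Dlgap4 under quantile normalisation (-0.18) and without P7 input replicate 2 (-0.024, against 0.25 without P7 input replicate 1). For P21 against P14, median-of-ratios and quantile normalisation each gave 4 of the 10 higher, and 2 were lower with no filter, under median-of-ratios and with no variance trend, with 2 to 4 when each library was left out (2 without P14 replicate 2 or 3 or P21 replicate 2); over all genes median-of-ratios gave 2732 higher and 2273 lower. For the difference of the weekly steps over all genes it gave 2247 higher and 2041 lower, and leaving out each library gave 870 (without P14 replicate 1) to 1364 higher and 2064 (without P14 replicate 2) to 3343 lower. The causes were not tested.

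Deviations from the age means correlated between same-numbered pull-down libraries with r from 0.012 to 0.18 over 9 pairs of libraries, all positive. Between pull-down libraries with different numbers r ran from -0.12 to 0.10. The labels do not say that a number marks a shared litter or batch. The main fit therefore did not pair libraries, and a shared source behind the numbers was not settled. With the replicate number as a block in limma, Shank1 (adjusted p = 0.041) and Shank2 (adjusted p = 0.0284) were also called lower in the step difference. The F test of Shank2 over the ages gave an adjusted p of 0.0241 under that block. Shank2 was also called lower in the pull-down than in input (-0.29, adjusted p = 0.0345). Input replicate 2 carried no Cre, so its number cannot mark the same animal as a pull-down. That input call therefore rests on a pairing that the genotypes do not give. A pseudocount of 5 TPM ended the call of Dlgap2 over Dlgap3 (exact permutation adjusted p = 0.0686) and gave one for Dlgap1 over Dlgap2 (exact permutation adjusted p = 0.00612). TPM gives no depth, so no counting error could be set against the low genes Dlgap2 and Homer3.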
